A study of Homo sapiens with 6 samples.

Results

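The transcripts of glycolysis were examined in MDA-MB-231 cells with stable knockdown of WASF3. The set was fixed by gene symbol and holds 36 genes: the enzymes from hexokinase to lactate dehydrogenase, glucose and lactate transporters, phosphoglucomutase, the PFKFB enzymes that regulate flux, and the PDK kinases that restrain pyruvate oxidation. Probe sets annotated to these symbols alone represented 34 of the 36, among 19775 genes named on the array. The lactate transporters SLC16A1 and SLC16A3 were not analysed here. The brightest probe set of a gene, by its mean over the 6 arrays, stands for the gene, and the other probe sets are described where they differ.

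MDA-MB-231 is an established human breast cancer line of the triple-negative, mesenchymal type. The 3 knockdown arrays come from single clones infected with the retroviral vector pSM2 carrying a short hairpin RNA against WASF3, of which 2 were used. The 3 control arrays come from single clones that received empty pSM2 or an shRNA against GFP. All clones were at passage 4, grown in RPMI with 10% fetal bovine serum and selected for 2 weeks in puromycin at 1.0 μg/ml, so resistance and the vector backbone are common to both groups. Which hairpin or control vector a given clone carries is not stated in the labels. With 1 array per clone, p-values measure the spread between clones, and an effect of WASF3 loss, of a hairpin and of picking single clones cannot be told apart. In RNA from a whole culture, fewer cells with a transcript and less transcript per cell cannot be told apart either.

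Glycolysis converts glucose to pyruvate in the cytosol, with control at glucose entry, hexokinase, phosphofructokinase and pyruvate kinase. PFKFB enzymes make and degrade fructose 2,6-bisphosphate, a potent allosteric activator of phosphofructokinase. Lactate dehydrogenase and the PDK kinases, which phosphorylate and inactivate pyruvate dehydrogenase, set whether pyruvate leaves as lactate or enters mitochondria. Many of these genes are induced by the hypoxia-inducible factors and by MYC, and tumour cells often keep them high in the presence of oxygen.

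Values are log2 RMA signals. A change is the knockdown mean less the control mean, given with its standard error (SE) from a limma fit over all probe sets. WASF3 itself read 5.40, 5.80 and 4.52 in knockdown clones 1, 2 and 3 and 6.77, 6.42 and 6.59 in the control clones. This change of −1.35 (SE 0.29) did not pass (limma adjusted p = 0.102), although the groups did not overlap. Of 10 markers of the line, 9 had a mean above 5, VIM being the highest at 14.21, and SPARC was low at 4.63. Among luminal breast markers, PGR and FOXA1 read 3.31 and 3.18, while KRT18, KRT19 and KRT8 averaged 12.77, 11.43 and 11.05. The log2 of the summed luminal signal, in which these keratins weigh most, was 13.03 to 13.69 in knockdown and 13.77 to 13.89 in control clones. The median of the 10 luminal markers was instead 7.31 in knockdown and 7.16 in control clones, and 8 had a mean above 5. KRT18, KRT19 and KRT8 changed by −0.47, −0.38 and −0.58, and ERBB3, CDH1 and EPCAM by 0.54, 0.47 and 0.50. The part of luminal signal in the results was not tested. Genes restricted to other tissues had a median of 4.75 and an upper quartile of 5.38 over 35 genes, which serves as a guide to the level without expression. In that list 14 genes lay above 5, MBP reaching 10.47, and the log2 of its summed signal was 11.16 to 11.31 in knockdown and 11.16 to 11.18 in control clones. The 3′ minus 5′ index, the difference between 3′ and 5′ control probe sets of GAPDH and ACTB and a sign of RNA quality, was 2.11, 1.62 and 1.66 in knockdown clones and 1.13, 1.47 and 1.26 in control clones. It was higher in every knockdown clone (exact two-sided permutation p = 0.1, the smallest possible with 3 against 3). Control arrays resembled each other more (correlation over probe sets 0.998) than knockdown arrays did (0.984 to 0.992).

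Most glycolytic transcripts read lower in the knockdown clones. The mean was lower for 27 of the 34 genes, with a median change of −0.33, while over all genes 52.4% were lower and the median was −0.01. A single member, PFKFB4, fell with p-values adjusted over all probe sets, and 0 rose (limma, adjusted p under 0.05). The same rule called 0.420% of all genes lower and 0.319% higher, 0.738% in either direction. Without adjustment, 15 members were lower and 2 higher at p under 0.05, against 7.67% and 9.11% of all genes. In 17 members all knockdown clones lay below all control clones, and in 1, PFKFB2, all lay above. Such separation held for 12.6% of all genes downwards and 12.1% upwards. All 16 members with a mean above 10 were lower, 11 of them without overlap, where 52.6% of the 2137 genes as bright were lower and 19.9% were lower without overlap. None of the 16 was called by limma, against 0.842% of genes as bright called lower. At an unadjusted p under 0.05, 9 of the 16 were lower, against 312 of the 2137 genes as bright.

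The shift was of like size in each knockdown clone, with a median over the members of −0.24, −0.26 and −0.25 in clones 1, 2 and 3 against the control mean. Over all genes these medians were 0.00, −0.02 and −0.02. The knockdown clones varied more among themselves than the control clones did, with a median SD over the members of 0.19 in knockdown and 0.05 in control clones. When the fit included the 3′ minus 5′ index, 26 members had a lower estimate, 10 of these at an unadjusted p under 0.05, the median was −0.19 and none passed after adjustment. That fit called 1 gene lower and 0 higher over the whole array. Some changes below passed without knockdown clone 1 or 3. Where the clone left out is the one that departs in that gene, the smaller p follows from that choice and is no added support. Over all genes the calls also grew, to 323 lower and 384 higher without clone 1 and to 441 lower and 784 higher without clone 3, against 83 and 63 with all clones.

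**Figure D1:**
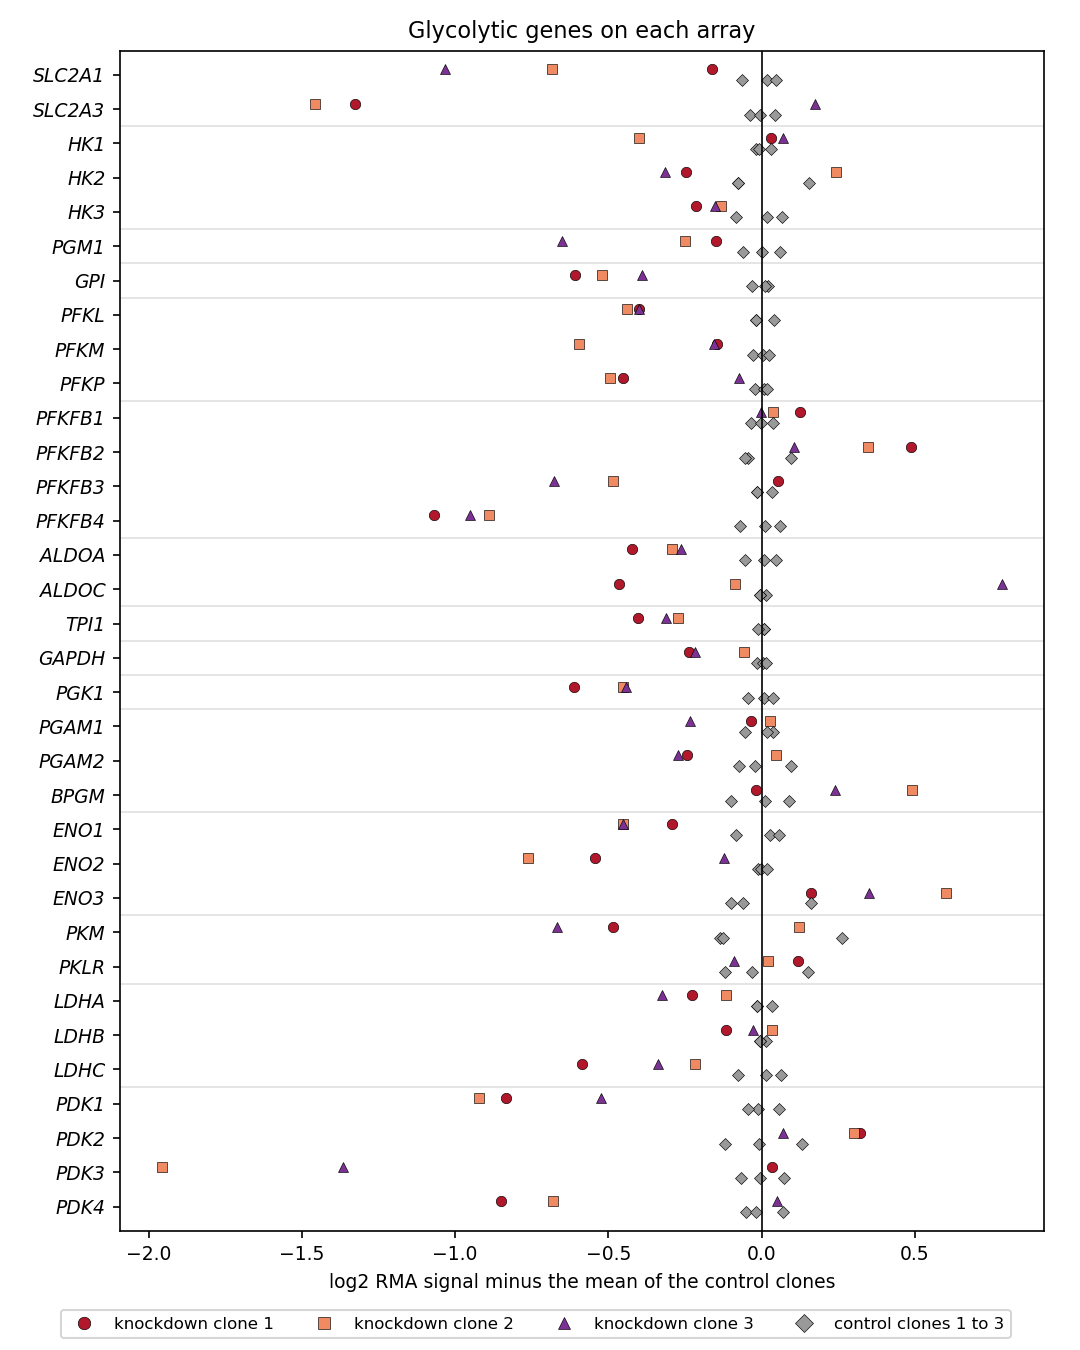
Each point is 1 array, plotted as its log2 RMA signal minus the mean of the 3 control clones, for the 34 measured members in pathway order; coloured symbols are knockdown clones 1 to 3 and grey diamonds the control clones. The control clones lie close together in nearly every row, and in 17 rows all knockdown clones lie to their left, while for SLC2A3, ALDOC, PDK3 and PDK4 1 knockdown clone departs from the other 2.

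Glucose uptake was read through SLC2A1 and SLC2A3, the transporters GLUT1 and GLUT3. SLC2A1 read 10.02, 9.50 and 9.15 in knockdown clones 1, 2 and 3, against 10.12, 10.20 and 10.23 in the control clones. All knockdown clones were lower, clone 1 only slightly, and the change of −0.63 (SE 0.20) did not pass (limma adjusted p = 0.226). Its other probe set gave −0.54. The SLC2A1 change was −0.86 without knockdown clone 1, where it passed (limma adjusted p = 0.0305), −0.43 without clone 3 (0.169) and −1.18 when the fit included the 3′ minus 5′ index (0.204). SLC2A3 behaved differently across clones, at 7.44, 7.31 and 8.94 in knockdown clones, against 8.73, 8.76 and 8.81 in control clones. Clones 1 and 2 were far below the controls and clone 3 was above them, so the groups overlapped and the change was −0.87 (SE 0.39, limma adjusted p = 0.376). The change was −1.39 without clone 3, the clone that went the other way (limma adjusted p = 0.00263), −0.65 without clone 1 (0.481), −0.58 without clone 2 (0.595) and −0.43 with the index in the fit (0.836). All 3 named probe sets of SLC2A3 had the same sign, and 2 further probe sets shared with its near-identical copy SLC2A14 were not used, so signal from that copy may contribute.

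The hexokinases, which trap glucose as glucose 6-phosphate, differed little between the groups. HK1, the constitutive form, gave −0.10 (SE 0.14) and HK2, the inducible form prominent in tumours, gave −0.11 (SE 0.16). For HK1 the knockdown clones read 11.51, 11.08 and 11.55, with clone 2 alone below the control clones at 11.46, 11.51 and 11.47. For HK2 clone 2 was instead the highest array, at 10.75. The 2 other probe sets of HK2, with means of 6.19 and 5.31, had the opposite sign, at 0.41 (SE 0.21) and 0.23 (SE 0.25). HK3, a form of myeloid cells, was near the level of genes not expected here, at 5.53 ± 0.04 in knockdown and 5.69 ± 0.08 in control clones (SD, n = 3 each). PGM1, which links glucose 6-phosphate to glycogen, gave −0.35 (SE 0.14) with clone 3 lowest at 10.79 and no overlap between groups. Without clone 3 the PGM1 change was −0.20.

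GPI, the isomerase that makes fructose 6-phosphate, read 11.42, 11.51 and 11.64 in knockdown clones, against 12.05, 12.00 and 12.04 in control clones. The gap between the groups was wider than the range within either, and the knockdown signal was 70.5% of control (change −0.51, SE 0.09, limma adjusted p = 0.0683). The phosphofructokinase subunits, which carry out the committed step, were all lower without overlap. PFKL, the liver-type subunit, was the most even across clones, at 7.76, 7.72 and 7.76 in knockdown clones, against 8.14, 8.14 and 8.20 in control clones (change −0.41, SE 0.08, limma adjusted p = 0.0781). PFKM, the muscle-type subunit, gave −0.30 (SE 0.13) with clone 2 furthest down and −0.15 without that clone. PFKP, the platelet type, gave −0.34 (SE 0.13) with clone 3 only 0.08 below the control mean.

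The PFKFB enzymes differed in direction, and PFKFB4 alone passed. PFKFB4, a form induced by hypoxia in many tumours, read 8.71, 8.89 and 8.83 in knockdown clones, against 9.71, 9.79 and 9.84 in control clones. The clones of each group lay close together, and PFKFB4 fell by 0.97 on the log2 scale, to 51.0% of the control signal (SE 0.09, 95% interval −1.18 to −0.76, limma adjusted p = 0.0172). Its second, dimmer probe set gave −0.46 (SE 0.10, limma adjusted p = 0.0908), also without overlap. The call was lost without knockdown clone 2 (limma adjusted p = 0.0563), without control clone 1, 2 or 3 (0.171, 0.187 and 0.231) and when the fit included the 3′ minus 5′ index (0.184). Over all genes these fits also called fewer, at 15 lower and 5 higher without knockdown clone 2, against 83 and 63 with all clones. Without control clone 1, 2 or 3 they called 2, 3 and 2 genes lower, and with the index 1, with 0 higher in each. The PFKFB4 change itself stayed between −1.01 and −0.88 in these fits.

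PFKFB3, the kinase-dominant form of proliferating cells, read 9.96, 9.42 and 9.23 in knockdown clones, against 9.89, 9.94 and 9.89 in control clones. Clone 1 was at the control level and clones 2 and 3 were below it (change −0.37, SE 0.18, limma adjusted p = 0.417). The PFKFB3 change was −0.58 without clone 1, the clone that departed (limma adjusted p = 0.0416), −0.21 without clone 3 (0.5) and −0.88 with the index in the fit (0.223). PFKFB2, the heart-type form, went the other way at 6.66, 6.52 and 6.28 in knockdown clones, against 6.13, 6.12 and 6.27 in control clones. Clone 3 was barely above the highest control (change 0.31, SE 0.12, limma adjusted p = 0.295, and 0.13 with the index in the fit), and 1 of the 4 probe sets of PFKFB2 had the opposite sign. PFKFB1, the liver form, gave 0.05 (SE 0.08) at a mean of 5, within the range of genes not expected here.

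From aldolase onwards, ALDOA, TPI1 and GAPDH were lower in all knockdown clones, GAPDH by less. ALDOA, the main aldolase, read 13.42, 13.55 and 13.58 in knockdown clones, against 13.85, 13.79 and 13.89 in control clones (change −0.33, SE 0.09, limma adjusted p = 0.159). TPI1, triosephosphate isomerase, gave −0.33 (SE 0.08, limma adjusted p = 0.139), and GAPDH, which reduces NAD, gave −0.17 (SE 0.09, limma adjusted p = 0.451). All 3 probe sets of each of these genes had the same sign. ALDOC, the brain-type aldolase, was dispersed over the knockdown clones at 7.04, 7.42 and 8.29, against 7.52, 7.50 and 7.50 in control clones. Clone 3 was the highest array and clone 1 the lowest, and the mean change was 0.08 (SE 0.28).

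PGK1, the phosphoglycerate kinase that makes the first ATP of the pathway, read 12.86, 13.02 and 13.03 in knockdown clones, against 13.48, 13.43 and 13.51 in control clones. The groups were well apart, with a change of −0.50 (SE 0.09, limma adjusted p = 0.0670), or 70.7% of the control signal. The other 5 probe sets of PGK1 gave larger differences, from −0.93 to −0.69, and 2 of them passed. The brighter of these, the third of the 6 by mean signal, read 10.23, 10.59 and 10.55 in knockdown clones, against 11.39, 11.20 and 11.50 in control clones (change −0.90, SE 0.13, limma adjusted p = 0.0441). The other gave −0.89 (SE 0.11, limma adjusted p = 0.0317) at a low mean of 4.90. ENO1, the ubiquitous enolase, gave −0.40 (SE 0.09, limma adjusted p = 0.115) on its brightest probe set and −1.09 (SE 0.28, limma adjusted p = 0.138) on the next, where control clone 2 at 11.55 was closer to the knockdown clones (10.96, 11.37 and 11.05) than to control clones 1 and 3 (12.65 and 12.46).

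Of 75 member probe sets, 59 were lower, 3 of these were called and 0 of the higher ones were, against 0.308% of all probe sets called lower. Among the 21 members with several probe sets, 15 had 1 sign throughout. Position along the transcript is one way probe sets differ. The GAPDH control probe sets gave −0.10 at the 3′ end, −0.22 in the middle and −0.27 at the 5′ end, and those of ACTB, which is no member, −0.17, −0.54 and −1.03. The positions of the PGK1 and ENO1 probe sets are not annotated in the files, and the part of transcript position in their unequal changes was not tested. Processed pseudogenes of GAPDH, PGK1, LDHB and ALDOA may also share signal with these probe sets.

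**Figure D2:**
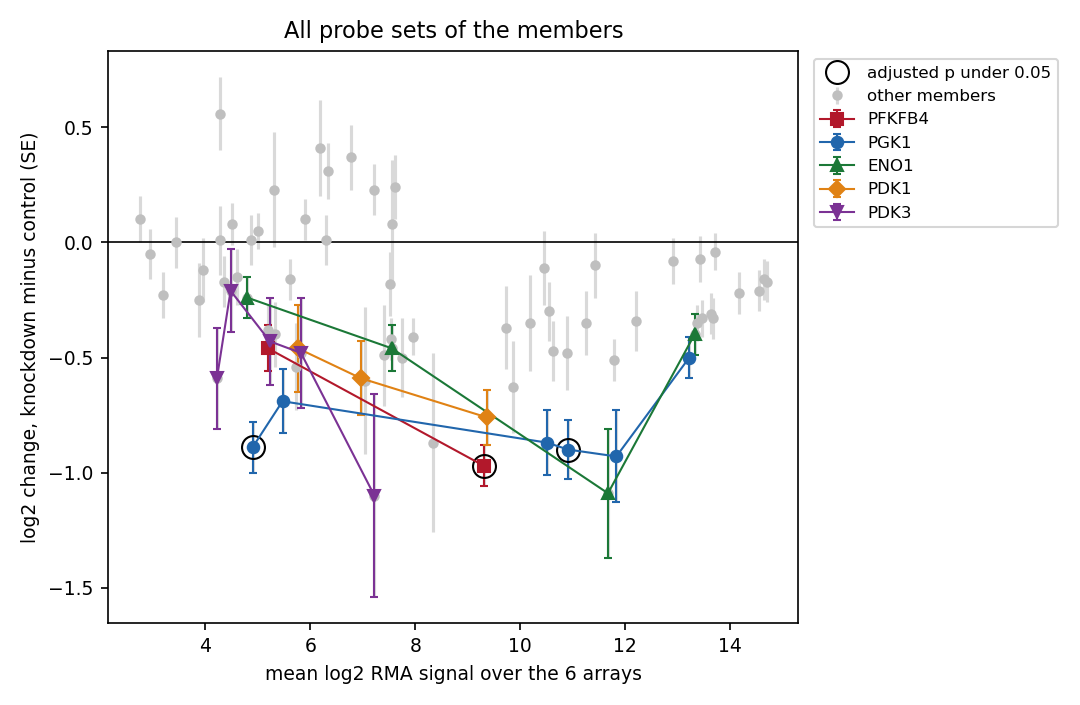
Each point is 1 of the 75 probe sets annotated to a member, with its mean log2 RMA signal over the 6 arrays on the x axis and its log2 change, knockdown minus control, on the y axis; bars are the SE of the limma fit, coloured lines join probe sets of 1 gene and open rings mark an adjusted p under 0.05. All 6 probe sets of PGK1 lie between −0.93 and −0.50, the brightest nearest to 0, and the 3 ringed points are 2 probe sets of PGK1 and 1 of PFKFB4.

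The mutases differed little between the groups. PGAM1, the main phosphoglycerate mutase, gave −0.08 (SE 0.10, 95% interval −0.31 to 0.15) with overlapping groups. BPGM, which makes 2,3-bisphosphoglycerate in red cells, gave 0.24 (SE 0.14), with clones 2 and 3 above the controls and clone 1 among them. PGAM2, the muscle mutase, had a mean of 4.6 and is not shown to be expressed. ENO2, the neuronal enolase, which many tumours also express, read 10.58, 10.36 and 11 in knockdown clones, against 11.11, 11.12 and 11.14 in control clones. All knockdown clones were lower, clone 3 by the least (change −0.48, SE 0.16, limma adjusted p = 0.241), and the ENO2 change was −0.66 without clone 3, where it passed (limma adjusted p = 0.0184), and −0.33 without clone 2 (0.379). ENO3, the muscle enolase, was in the opposite direction at 6.75, 7.19 and 6.94 in knockdown clones, against 6.53, 6.49 and 6.75 in control clones (change 0.37, SE 0.14, limma adjusted p = 0.286). Clones 2 and 3 of ENO3 were above all controls and clone 1 equalled the highest, while a second probe set of ENO3, at a mean near 3, gave −0.23.

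At the end of the pathway, PKM, the pyruvate kinase of most dividing cells, read 9.86, 10.47 and 9.68 in knockdown clones, against 10.61, 10.21 and 10.22 in control clones. Clone 2 lay among the controls and the other 2 below them (change −0.35, SE 0.21, limma adjusted p = 0.538). The PKM change was −0.58 without clone 2, −0.18 without clone 3, −0.21 without control clone 1 and 0.02 when the fit included the 3′ minus 5′ index. PKLR, the liver and red cell form, gave 0.01 (SE 0.11) at a mean of 4.87 and is not shown to be expressed. LDHA, the subunit that favours lactate production, read 14.05, 14.16 and 13.95 in knockdown clones, against 14.31, 14.26 and 14.26 in control clones (change −0.22, SE 0.09, limma adjusted p = 0.333). The groups did not overlap, and the knockdown signal was 85.7% of control. LDHB, the other common subunit, gave −0.04 (SE 0.08, 95% interval −0.23 to 0.16), with clone 2 above the controls. LDHC, the testis form, gave −0.38 (SE 0.11) without overlap, but at a mean of 5.19, below the upper quartile of genes not expected here. It lies next to LDHA on chromosome 11 with 0 protein-coding genes between them. TPI1, GAPDH, ENO2 and SLC2A3 also share a stretch of chromosome 12. There are 18 protein-coding genes between TPI1 and GAPDH, 2 between TPI1 and ENO2, and 22 between ENO2 and SLC2A3. PFKP and PFKFB3 lie on chromosome 10 with 22 between them, so these members are not independent in position.

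None of the 4 pyruvate dehydrogenase kinases passed the adjusted test, and 3 of them read lower. PDK1, the hypoxia-induced isoform, read 8.91, 8.82 and 9.22 in knockdown clones, against 9.73, 9.70 and 9.80 in control clones. Every knockdown clone was below every control clone, at 59.1% of the control signal on average, and the change of −0.76 (SE 0.12) was just short of the threshold (limma adjusted p = 0.0522). The 2 other probe sets of PDK1 gave −0.59 and −0.46. When the fit included the 3′ minus 5′ index the PDK1 change was −0.67 (SE 0.21, limma adjusted p = 0.308). PDK1 passed without knockdown clone 3 (change −0.88, limma adjusted p = 0.00817) and with a separate spread for each group (limma adjusted p = 0.0306), and was just under the threshold without clone 1. Its adjusted p was 0.102 without clone 2 and 0.279 to 0.299 without a control clone.

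PDK2, a widely expressed isoform, gave 0.23 (SE 0.11, limma adjusted p = 0.415), with clones 1 and 2 above the controls and clone 3 among them, and 0.06 with the index in the fit. A second probe set of PDK2, at a mean of 6.29, gave 0.01 (SE 0.11). PDK3, an isoform abundant in testis, read 7.80, 5.81 and 6.40 in knockdown clones, against 7.70, 7.76 and 7.84 in control clones. Clone 1 of PDK3 was within the control range while clones 2 and 3 were more than 1 log2 unit below it, and the change was −1.10 (SE 0.44, limma adjusted p = 0.322). All 5 PDK3 probe sets were lower on average, and the PDK3 change was −1.66 without clone 1, the clone that departed (limma adjusted p = 0.0162). It was −0.67 without clone 2 (limma adjusted p = 0.510) and −2.47 with the index in the fit (0.187). PDK4, the isoform raised by fasting and fatty acids, showed the reverse arrangement at 6.81, 6.98 and 7.71 in knockdown clones, against 7.73, 7.61 and 7.64 in control clones. Here clones 1 and 2 were low and clone 3 at the control level (change −0.49, SE 0.22, limma adjusted p = 0.377). The 2 other probe sets of PDK4 did not show this fall, at 0.00 and 0.10, but their means were low at 3.44 and 2.75. The PDK4 change was −0.76 without clone 3, again the clone that departed (limma adjusted p = 0.0132), −0.31 without clone 1 (0.492) and −0.05 with the index in the fit (0.968).

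Unequal change between isoenzymes of a step was tested on the log2 difference of their signals within each array, which compares changes and not levels of different probe sets. Of 18 measured pairs, 7 had groups that did not overlap, each with an exact two-sided permutation p of 0.1, the smallest possible, and an adjusted p of 0.257 over the 18 pairs. No pair could therefore pass. Several of the 7 share a gene, as among PFKFB2, PFKFB3 and PFKFB4, so they are not independent. Of all single genes, 12.6% were lower and 12.1% higher without overlap, and no such share was computed for pairs. The PFKFB4 minus PFKFB2 difference was 2.06, 2.37 and 2.55 in knockdown clones and 3.59, 3.68 and 3.56 in control clones, a shift of −1.28. The PFKFB4 minus PFKFB3 difference shifted by −0.60, most in clone 1, and PFKFB2 minus PFKFB3 by 0.68. Among the PDK kinases, PDK1 minus PDK2 was 1.48, 1.43 and 2.06 in knockdown clones and 2.64, 2.47 and 2.83 in control clones, a shift of −0.99. PDK3 minus PDK2 shifted by −1.33, with clone 1 at 0.37 just under the lowest control at 0.53. The ENO3 minus ENO1 difference shifted by 0.77. LDHB minus LDHA was −0.44, −0.42 and −0.26 in knockdown clones and −0.58, −0.55 and −0.54 in control clones, a small shift of 0.19 towards LDHB that all 3 clones shared.

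For the other 11 pairs the groups overlapped. The phosphofructokinase subunits had shifts of 0.11 for PFKM minus PFKL, 0.07 for PFKP minus PFKL and −0.04 for PFKP minus PFKM. SLC2A3 minus SLC2A1 was −2.57, −2.20 and −0.21 in knockdown clones, against −1.39, −1.44 and −1.42 in control clones. Clones 1 and 2 thus shifted towards SLC2A1 and clone 3 towards SLC2A3, and the mean shift of −0.24 describes none of them. PDK1 minus PDK3 was likewise 1.11 in clone 1 and 3.01 and 2.83 in clones 2 and 3, around control values of 2.03, 1.94 and 1.96.

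**Figure D3:**
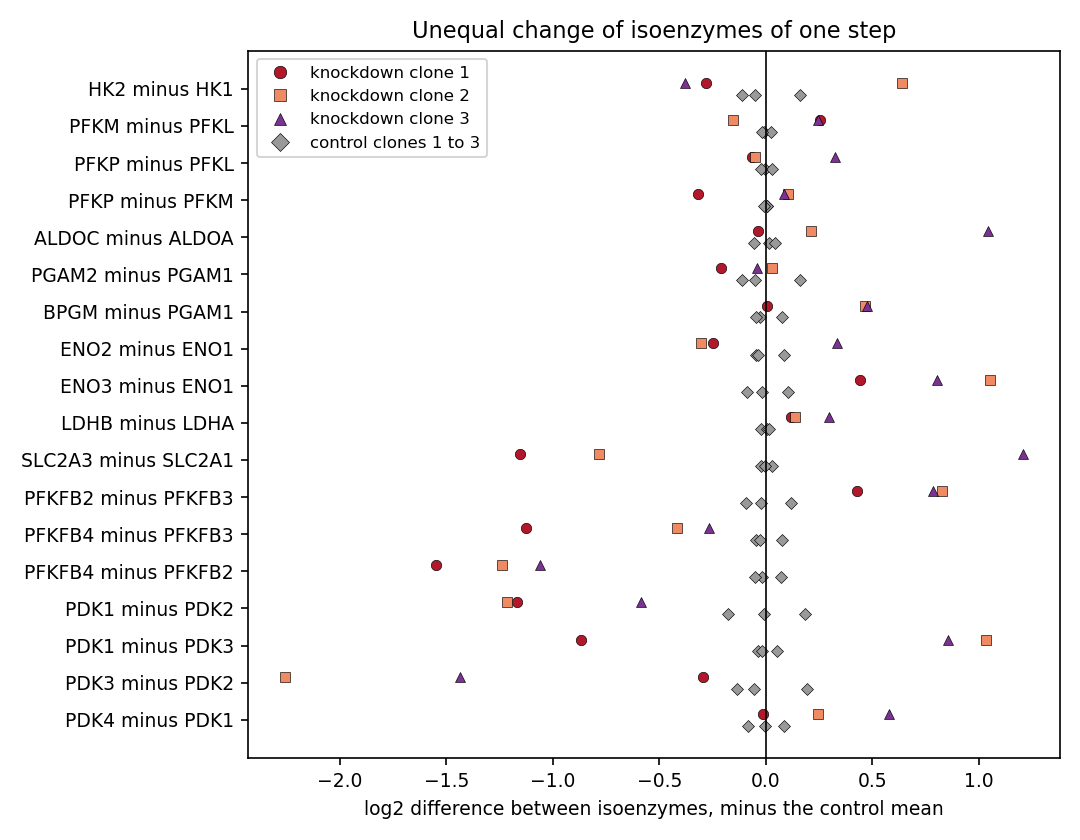
Each row is a pair of isoenzymes, and each point is 1 array, plotted as the log2 signal of the first gene minus the second, less the mean of the control clones; coloured symbols are knockdown clones 1 to 3 and grey diamonds the control clones. The pair PFKFB4 minus PFKFB2 lies to the left in all knockdown clones, from 2.06 to 2.55 before centring against 3.56 to 3.68 in control clones, while SLC2A3 minus SLC2A1 and PDK1 minus PDK3 have knockdown clones on both sides.

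Across the members, departures by a single knockdown clone were spread over the 3 clones. In 17 genes all 3 clones were below the lowest control. In 2 genes, PFKFB3 and PDK3, only clone 1 was not below it, and in 3 genes, SLC2A3, PDK4 and ALDOC, only clone 3 was not. In 4 genes, HK2, PKM, PGAM2 and LDHB, it was clone 2. The 3′ minus 5′ index was highest in clone 1, and WASF3 was lowest in clone 3. Clone 1, with the highest index, had control-level PDK3 and PFKFB3, while its SLC2A3 and PDK4 were low. The fits that included the index moved the changes of all 4 by over 1.5 times, as given with each gene: PDK3 and PFKFB3 further from 0, SLC2A3 and PDK4 nearer to it. Because clone 1 has the highest index, the direction of each move follows from its values in that gene and is no added support. The part of RNA quality in these clone patterns was not tested.

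Promoters were compared because most members read lower together. The windows are the 250 bases before each RefSeq transcription start on GRCh38.p14, written 5′ to 3′ on the gene's strand, and they matched 32 of the 34 measured members. They were searched on both strands for ACGTG and GCGTG, the cores of the element bound by hypoxia-inducible factors, and for CACGTG, the E-box bound by MYC and its partners, which contains ACGTG. PFKFB4 and the 4 members with the next smallest unadjusted p, PDK1, PGK1, GPI and PFKL, are shown with matches to ACGTG or GCGTG on either strand in capitals. The windows are, for PFKFB4, chr3:48556804-48557053 on the minus strand, and on the plus strand chr2:172555840-172556089 for the second of 2 PDK1 starts, chrX:78103998-78104247 for PGK1, chr19:34364742-34364991 for GPI and chr21:44299803-44300052 for PFKL.
PFKFB4: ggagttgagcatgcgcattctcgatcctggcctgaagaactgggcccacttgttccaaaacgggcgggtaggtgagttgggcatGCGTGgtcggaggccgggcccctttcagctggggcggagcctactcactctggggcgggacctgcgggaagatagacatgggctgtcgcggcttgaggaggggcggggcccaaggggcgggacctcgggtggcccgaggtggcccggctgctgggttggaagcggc
PDK1: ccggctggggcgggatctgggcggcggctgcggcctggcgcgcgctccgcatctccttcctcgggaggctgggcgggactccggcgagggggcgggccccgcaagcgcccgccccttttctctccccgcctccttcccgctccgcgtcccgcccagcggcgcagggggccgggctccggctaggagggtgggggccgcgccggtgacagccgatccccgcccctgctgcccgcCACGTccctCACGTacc
PGK1: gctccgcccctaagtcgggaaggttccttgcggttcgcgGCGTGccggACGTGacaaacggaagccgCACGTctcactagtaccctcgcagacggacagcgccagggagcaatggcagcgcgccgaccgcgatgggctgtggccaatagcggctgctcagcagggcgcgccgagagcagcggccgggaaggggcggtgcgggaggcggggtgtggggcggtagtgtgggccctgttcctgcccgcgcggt
GPI: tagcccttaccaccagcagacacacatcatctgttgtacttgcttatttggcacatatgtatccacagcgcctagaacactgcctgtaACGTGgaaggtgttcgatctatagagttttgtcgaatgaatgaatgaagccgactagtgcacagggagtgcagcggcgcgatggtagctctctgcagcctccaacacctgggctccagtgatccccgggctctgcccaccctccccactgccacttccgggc
PFKL: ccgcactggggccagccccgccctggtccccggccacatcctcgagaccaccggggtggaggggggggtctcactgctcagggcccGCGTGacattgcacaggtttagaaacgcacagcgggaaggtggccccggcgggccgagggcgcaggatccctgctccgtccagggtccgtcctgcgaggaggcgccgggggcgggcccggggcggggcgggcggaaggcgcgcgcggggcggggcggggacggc

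PFKFB4, the called member, has a single GCGTG, which begins 166 bases before the start. PGK1 has 3 matches, a GCGTG and an ACGTG 211 and 202 bases before the start and an ACGTG on the opposite strand 183 bases before it. PDK1 has 2 copies of ACGTG on the opposite strand, 17 and 8 bases before its second start, and its first listed window has none. GPI has an ACGTG and PFKL a GCGTG, 162 and 164 bases before the start. With the first listed window of each gene, ACGTG was present in 37.5% of the 32 members and in 18.7% of 27305 genes, GCGTG in 34.4% and 31.9%, and CACGTG in 12.5% and 6.49%. Members lower without overlap carried ACGTG in 7 of 17 windows, and the other members in 5 of 15. Either core, ACGTG or GCGTG, was present in the first window of 56.2% of the 32 members and of 43.1% of genes. Members lower without overlap carried either core in 10 of 17 windows, and the other members in 8 of 15. A match is a description of sequence and shows no binding, and no test was made of these shares.

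The medians of neighbouring routes of glucose metabolism lay closer to 0 than that of the members. The lists were the remaining glycolytic genes, the pentose phosphate pathway, gluconeogenesis and glycogen, pyruvate entry into mitochondria, the citric acid cycle, and transcriptional and energy regulators. The 20 other glycolytic genes had a median signal of 5.43, near the level of genes not expected here, against 9.8 for the members. Genes at that level have little room to fall, which limits the comparison. Median changes were −0.04 over 20 other glycolytic genes, −0.04 over 12 pentose phosphate genes and 0.03 over 21 genes of gluconeogenesis and glycogen. They were 0.07 over 10 genes of pyruvate entry, 0.08 over 17 genes of the citric acid cycle and 0.08 over 12 regulators. Of all these, 1 fell, the mitochondrial malate dehydrogenase MDH2, at 12.17, 12.04 and 12.16 in knockdown clones, against 12.70, 12.65 and 12.66 in control clones (change −0.54, SE 0.08, limma adjusted p = 0.0491). None rose by limma after adjustment. Without it 13 were higher and 10 lower at p under 0.05, where 9.11% of all genes were higher and 7.67% lower.

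In the list of pyruvate entry 8 of 10 genes were higher in the knockdown clones and 4 were higher without overlap, where 52.4% of all genes were lower and 12.1% were higher without overlap. DLAT, the acetyltransferase of pyruvate dehydrogenase, gave 0.43 (SE 0.10, limma adjusted p = 0.107) and DLD, its dihydrolipoamide dehydrogenase, gave 0.50 (SE 0.13, limma adjusted p = 0.136). In the citric acid cycle 13 of 17 were higher and 2 were higher without overlap, a share near the 12.1% of all genes, and the list median differed by clone at −0.14, 0.25 and 0.03 in clones 1, 2 and 3. SLC2A6, a lysosomal member of the glucose transporter family, read 8.47, 8.07 and 7.98 in knockdown clones, against 7.40, 7.49 and 7.49 in control clones. It was higher in every knockdown clone (change 0.71, SE 0.14, limma adjusted p = 0.0768), the opposite of SLC2A1. MINPP1, an inositol polyphosphate phosphatase that can also act on 2,3-bisphosphoglycerate, gave 0.54 (SE 0.11, limma adjusted p = 0.0967). In the pentose phosphate pathway PGD gave −0.48 (SE 0.12, limma adjusted p = 0.133), with 1 of its 3 probe sets of that sign, and H6PD gave −0.36 (SE 0.10, limma adjusted p = 0.181). Among glycogen genes PGM2, a phosphopentomutase related to PGM1, gave 0.52 (SE 0.08, limma adjusted p = 0.0525), and GYG1, the primer of glycogen synthesis, gave −0.60 (SE 0.10, limma adjusted p = 0.0582).

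The regulators of these genes differed in direction. HIF1A, the oxygen-regulated subunit of hypoxia-inducible factor 1, read 12.71, 12.52 and 12.66 in knockdown clones, against 12.21, 12.23 and 12.21 in control clones. It was higher in each knockdown clone (change 0.42, SE 0.09, limma adjusted p = 0.0978). EPAS1, the related subunit of factor 2, read 9.57, 9.22 and 9.15 in knockdown clones, against 9.97, 9.96 and 9.99 in control clones, and was lower in each (change −0.67, SE 0.12, limma adjusted p = 0.0698). MYC read 10.46, 10.98 and 11.76 in knockdown clones, against 11.14, 10.89 and 11.07 in control clones, a mean change of 0.03 (SE 0.29) over clones that lay on both sides of the controls.

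**Figure D4:**
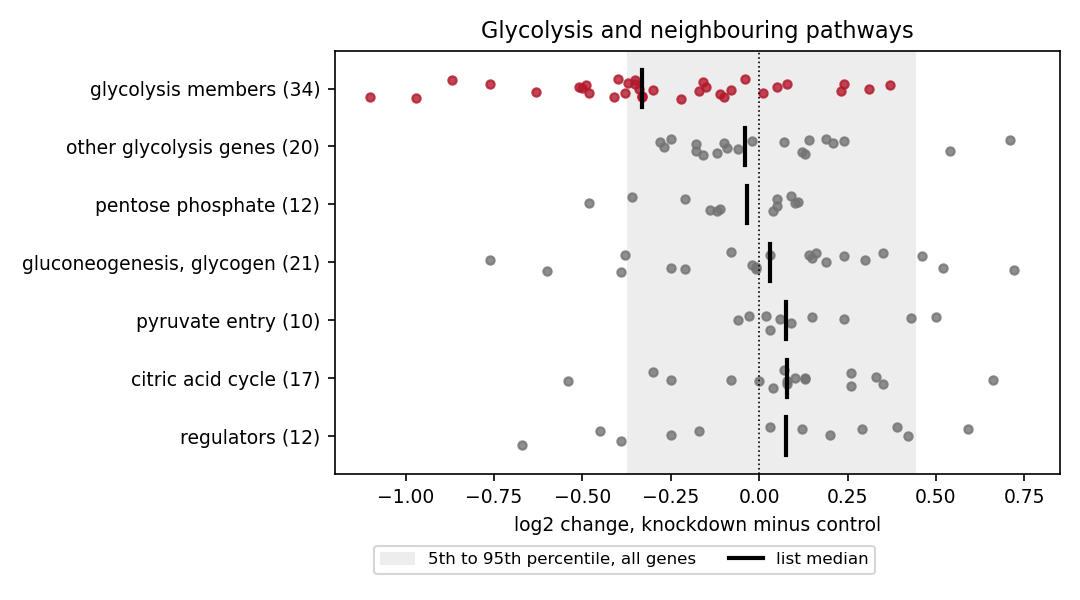
Each point is the log2 change, knockdown minus control, of 1 gene, in rows for the members and for 6 neighbouring lists, with the number of measured genes in brackets; black bars are list medians and the grey band spans the 5th to 95th percentile of all genes, −0.37 to 0.44. The members have a median of −0.33, while the medians of the other lists lie between −0.04 and 0.08. The other glycolytic genes have a median signal of 5.43, against 9.8 for the members, so many had little room to fall.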

How the data were processed

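RNA of 6 clones was labelled by the Affymetrix 3′ IVT Express protocol and hybridised to 1 array per clone, as the labels' protocols state. Per the submitters' processing notes, the authors ran RMA in Affymetrix Expression Console 1.0, and the deposited values are on the log2 scale. RMA gives every array the same distribution of probe intensities and so largely removes any shift common to most transcripts. The array medians of the probe set values still ran from 5.12 to 5.17. Signal over background and the number of arrays limit the precision.

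Of 54675 probe sets, 62 controls were left out of the tests, 41091 carried 1 symbol, 1801 several and 11721 none. Symbols came from the platform annotation, 41037 being updated by identifier through RefSeq genes of GRCh38.p14. Probe sets with several symbols named no gene. The 54613 probe sets were fitted with limma 3.58.1 in R 4.3.3 (lmFit, eBayes without trend, group as the only term, two-sided, Benjamini-Hochberg over all of them). The fit was tried on simulated data that had the same spread in both groups and no difference in RNA quality. That trial therefore does not cover the wider spread of the knockdown clones or their higher 3′ minus 5′ index. A gene was called at an adjusted p under 0.05. Single values were compared by exact permutation.

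The 36 members and all lists were chosen with earlier results of these data known. Named genes were all members, WASF3, HIF1A, EPAS1 and MYC, and in each other list the called genes (up to 3) or the 2 lowest by unadjusted p where a list held no called gene. The markers and control probe sets named, and the clone patterns, came in after their values were seen. Alternatives were an intensity trend, a separate spread per group, a mean above 5, other probe set rules, median centring, the clone number as a block, the 3′ minus 5′ index added to the fit, and leaving out each clone.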

Additional observations from a re-analysis of the deposited data

How the results depend on the processing

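The median change of the members was negative in all 14 alternatives of the methods, between −0.34 and −0.19, and members called higher were 0 in each. It was −0.25 with the mean of all probe sets, −0.29 without probe sets matching several transcripts, −0.31 with arrays centred on their medians, −0.19 with the 3′ minus 5′ index in the fit, and −0.33 to −0.24 leaving out 1 clone. The 17 members lower without overlap do not depend on the fit. They were 17 to 21 leaving out 1 clone and 8 of 20 measured without probe sets matching several transcripts. Over all genes the share lower without overlap was 12.6% with all clones, 15.4% to 20.9% leaving out 1 clone and 11.5% without those probe sets. The 1 member higher without overlap became 0 with centred arrays and under the mean of all probe sets, and 1 to 3 leaving out 1 clone.

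The count of called members was the least stable result. It was 1 with all clones, 2 with a separate spread for each group, with a mean above 5, without probe sets matching several transcripts and, added after seeing the data, when any probe set of a gene sufficed. It was 4 with the mean of all probe sets (GPI, PFKL, PGK1 and PFKFB4) and 0 with the index in the fit. Leaving out 1 clone gave 0 to 9: 5 without knockdown clone 1 (PDK1, PDK3, PFKFB3, PFKFB4, SLC2A1), 9 without knockdown clone 3 (ENO2, GPI, PDK1, PDK4, PFKFB4, PFKL, PFKP, PGK1, SLC2A3), and 0 without knockdown clone 2 or any control clone. With the clone number as a block (replicate block) it was 0, as PFKFB4 had an adjusted p of 0.135. The numbers do not pair the clones, since same-numbered clones had correlations of deviations of −0.070, −0.096 and −0.042. Genes called over the whole array were 3 under the block, against 146 without it. They were 1 with the index, 2, 3 and 2 without control clone 1, 2 or 3, and 15 lower and 5 higher without knockdown clone 2. Most fits that called more members also called more genes. Against the main 83 lower and 63 higher, counts were 156 and 138 for separate spread and 128 and 110 for averaged probe sets. A mean above 5 gave 98 and 97. Omitting knockdown clone 1 gave 323 and 384, and omitting clone 3 gave 441 and 784. Dropping probe sets that match several transcripts gave fewer, 51 and 40, among 16788 genes. PFKFB4 kept a change between −1.01 and −0.72 in all alternatives and was called in 8 of 14.

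Called genes of the other lists were 1 lower and 0 higher. Lower ones were 3 with a separate spread, 0 without probe sets matching several transcripts, with centring, with the block and with the index, and 0 to 5 leaving out 1 clone. Higher ones were 2 with a separate spread, 1 with a mean above 5, under the mean of all probe sets and with centring, and 0 to 5 leaving out 1 clone. Over all genes, lower and higher calls were 83 and 63 with all clones, 156 and 138 with a separate spread, and 70 and 79 with centring. Those of the other fits named here are in the paragraph above, and the counts in these lists were not tested against them. WASF3 passed with a separate spread (−1.35, limma adjusted p = 0.0479) and without knockdown clone 3 (−0.99, 0.0175), and ranged from −1.63 to −0.99 leaving out 1 clone.

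Some members turned sign, most with changes near 0. With the mean of all probe sets HK2 gave 0.18 and PKLR −0.08. With the index HK2 gave 0.10, PKM 0.02 (against −0.35), PKLR −0.19, LDHB 0.06 and PFKFB1 −0.05. Of members that kept their sign, it moved PFKM to −0.51, PGM1 to −0.59, BPGM to 0.60, ENO3 to 0.66 and ALDOC to 0.68. Leaving out 1 clone, ranges that crossed or met 0 were −0.19 to 0.05 for HK1, −0.28 to 0.35 for ALDOC, −0.05 to 0.09 for PKLR, −0.07 to 0.00 for LDHB and −0.13 to 0.00 for PGAM1. Of the isoenzyme differences, the mean of all probe sets turned HK2 minus HK1 (0.28), PFKP minus PFKM (0.07), ENO2 minus ENO1 (0.07) and PDK1 minus PDK3 (−0.04). Leaving out 1 clone, ranges were −0.33 to 0.18 for HK2 minus HK1, −0.12 to 0.09 for PFKP minus PFKM, −0.06 to 0.13 for PFKP minus PFKL, and −0.28 to 0.04 for ENO2 minus ENO1. They were −0.97 to 0.21 for SLC2A3 minus SLC2A1, −0.01 to 0.94 for PDK1 minus PDK3, and −0.13 to 0.00 for PGAM2 minus PGAM1. The cause was not tested.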
